A study of Mus musculus with 6 samples.

Results

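Hox genes encode homeodomain transcription factors that give cells their position along the body axis, and they were examined here as a check on how far the dissected midbrain reached towards the caudal hindbrain. The members were 38 protein-coding genes of the 4 mouse Hox clusters, matched by Ensembl gene ID on the GRCm38 annotation. Of the 38 genes, 16 were among the 26852 genes that the table listed. No gene in the table had a mean of 0, the smallest being 0.147 normalized counts, and the other 22 Hox genes were not listed.

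RNA came from midbrains dissected at E14.5 on a C57Bl/6 background. The Lmx1b cKO embryos were Lmx1b fl/fl;Pitx3-Cre and the control embryos were Lmx1b wt/wt;Pitx3-Cre, with 3 libraries per group and 2 pooled embryos per library from 4 litters. Both groups therefore carried the Cre allele, which is driven by Pitx3 and is active in midbrain dopaminergic neurons. The cross was meant to remove Lmx1b from those neurons and not from the other cells of the dissected tissue. The table gave group means only, and the reads of each library were worked back from them; the letters a, b and c follow the falling size factor and cannot be matched to sample numbers. Recovered reads ranged from 20566011 to 24974510 per library.

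The midbrain label was checked on its defining genes. Otx2, the transcription factor that sets the caudal limit of the midbrain, had 1613 to 1863 normalized counts in the 6 libraries. Th, the rate-limiting enzyme of dopamine synthesis, had 733 to 976. The counts of Lmx1b, summed over the whole gene, averaged 1371 ± 102 in cKO libraries and 1398 ± 66.6 in control libraries (SD, n = 3 libraries each; limma, log2 difference of -0.031, SE 0.074, unadjusted p = 0.685), so the gene-level count did not separate the genotypes and does not check the labels.

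In the embryo the Hox genes lie in clusters whose order along the chromosome follows their order along the body axis. Genes of the low-numbered paralog groups, at the 3′ end of each cluster, reach furthest forward and end at segment borders of the hindbrain, whereas genes of the high-numbered groups mark trunk, tail, limb and genital tissue. The midbrain and the most anterior hindbrain segment normally lie in front of the expression of all of them. Outside their domains the clusters are kept silent by Polycomb proteins on CpG-rich chromatin.

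The 5′ border of the HoxD cluster is shown in sequence because neighbouring genes there had very different levels. Evx2, a homeobox gene outside the cluster, was at 299 normalized counts; Hoxd13, whose gene body lies 8.75 kb away, was at 6.70; and Hoxd12, the next gene in the cluster, was not listed. The 250 bases before the start of each gene are given 5′ to 3′ on the gene's strand, from RefSeq on GRCm38.p6, with each CpG (the letters CG) in capitals. They cover chr2:74659558-74659807 on the minus strand for Evx2, and on the plus strand chr2:74667975-74668224 for Hoxd13 and chr2:74674763-74675012 for Hoxd12.
Evx2: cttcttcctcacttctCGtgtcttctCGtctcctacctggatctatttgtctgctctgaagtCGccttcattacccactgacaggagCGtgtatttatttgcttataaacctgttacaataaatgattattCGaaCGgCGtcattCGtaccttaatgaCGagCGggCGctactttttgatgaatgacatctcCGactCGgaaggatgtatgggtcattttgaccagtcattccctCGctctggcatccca
Hoxd13: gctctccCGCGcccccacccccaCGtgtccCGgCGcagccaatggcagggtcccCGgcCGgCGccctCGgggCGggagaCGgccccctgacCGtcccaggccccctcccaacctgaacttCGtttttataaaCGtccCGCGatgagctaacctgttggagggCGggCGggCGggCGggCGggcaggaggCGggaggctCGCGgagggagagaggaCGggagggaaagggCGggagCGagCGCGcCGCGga
Hoxd12: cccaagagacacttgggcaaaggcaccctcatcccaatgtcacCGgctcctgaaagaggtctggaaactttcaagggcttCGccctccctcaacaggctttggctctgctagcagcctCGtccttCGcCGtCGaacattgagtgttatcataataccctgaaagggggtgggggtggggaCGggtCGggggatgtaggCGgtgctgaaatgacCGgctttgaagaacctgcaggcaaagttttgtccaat

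The window before Hoxd13 held 31 CpG, as many as or more than which were found in 5.19% of all 32851 windows of this length. The window before Evx2 held 14 CpG, a number reached by 29.4% of windows, and that before Hoxd12 held 10, reached by 37.8%. Across the 22 Hox genes with a window the median was 13 CpG, against 6 over all windows. The 9 listed Hox genes had 6 to 31 CpG with a median of 14, and the 13 that were not listed had 3 to 35 with a median of 13, so the range of the listed genes lay within that of the others.

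Hox transcripts were close to the limit of detection in every library. The 16 listed genes together gave 91 reads over the 6 libraries, and their summed level was 14.9 normalized counts. None of them reached a mean of 10 normalized counts, the minimum for the main test, whereas 64.3% of all 22028 annotated protein-coding genes did. Of the protein-coding genes 78.0% were listed, against 42.1% of the Hox genes. The median listed Hox gene had a mean of 0.420, against 547 for all listed protein-coding genes.

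**Figure D1:**
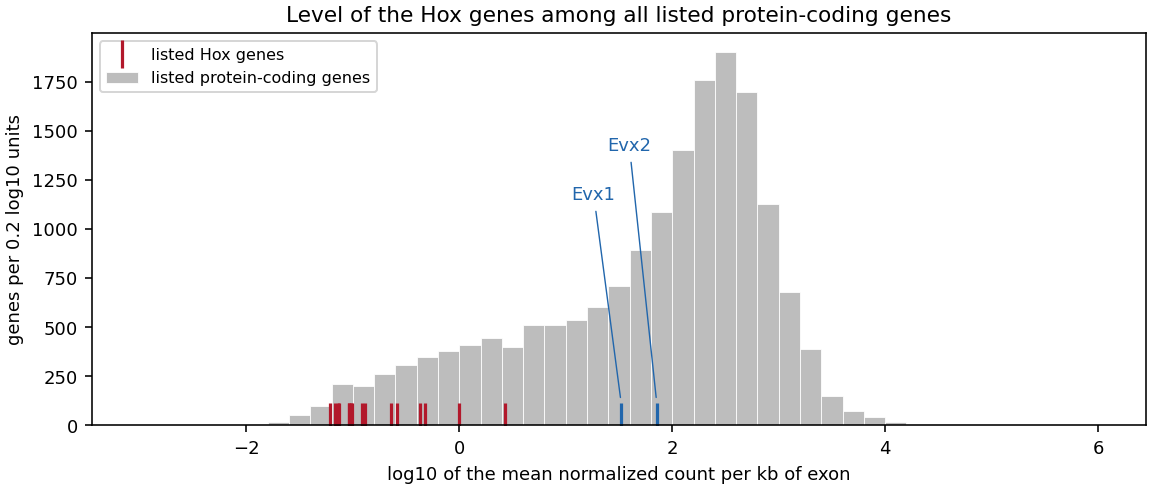
Histogram of the mean level of the listed protein-coding genes, as log10 of normalized counts per kb of exon (x axis), with the number of genes per bin on the y axis; red ticks mark the 16 listed Hox genes and blue ticks Evx1 and Evx2. The Hox genes sit between 0.0608 and 2.70 normalized counts per kb, below Evx1 at 33.0 and Evx2 at 71.3.

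Hoxd13, which patterns digits and genitalia, accounted for 41 of the 91 reads (45.1%). It had 6, 5 and 4 reads in cKO a, b and c and 14, 3 and 9 in control a, b and c, and of the 16 genes it alone had reads in all 6 libraries. Its reads were spread over cKO and control libraries alike, with the lowest value in control b and the highest in control a. Hoxa2, which reaches furthest forward in the hindbrain, had 0, 4 and 1 reads in the cKO and 6, 0 and 0 in the control.

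Beside these 2, another 5 genes had more than 3 reads in a library, the level taken as the floor of detection. Hoxa3 had 5 reads, Hoxd8 had 4 and Hoxd1 had 4, all in cKO a, and Hoxd1 had 1 more in control c. Hoxc5 had 5 reads, all in control b, and Hoxa7 had 3 in cKO a and 5 in control c. Each of these 5 genes passed the floor in 1 library only. Without cKO a, whose reads alone carried Hoxa3, Hoxd1 and Hoxd8 over the floor, 4 Hox genes were above it in place of 7.

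The other 9 listed genes had at most 3 reads over all libraries. Hoxb3 had 3 reads, 1 each in cKO a, cKO c and control c, and Hoxb2 had 2, 1 each in cKO b and control a. Hoxa4, Hoxa5, Hoxb4, Hoxb6, Hoxb13, Hoxc4 and Hoxc6 had 1 read each in a single library. The genes that were not listed were Hoxa6, Hoxa9, Hoxa10, Hoxa11 and Hoxa13 of the HoxA cluster; Hoxb1, Hoxb5, Hoxb7, Hoxb8 and Hoxb9 of HoxB; Hoxc8 to Hoxc13 of HoxC; and Hoxd3, Hoxd4 and Hoxd9 to Hoxd12 of HoxD.

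**Figure D2:**
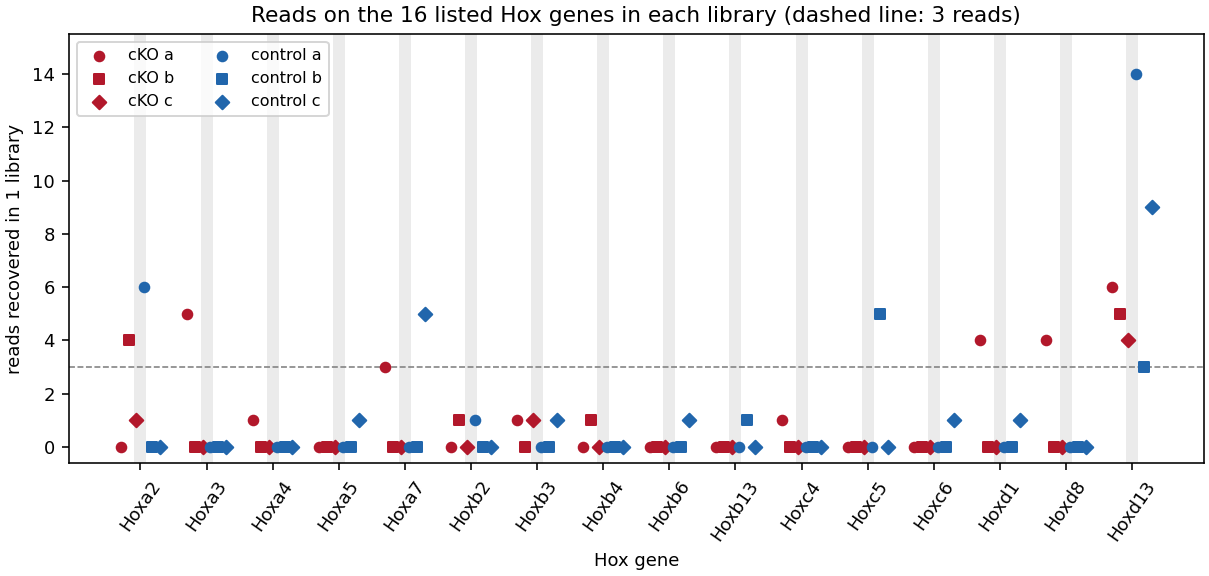
Reads recovered on each of the 16 listed Hox genes (x axis) in each library (y axis, reads), with cKO libraries in red and control libraries in blue and the dashed line at 3 reads. Hoxd13 is above 0 in all 6 libraries, and most other points lie at 0 or 1.

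Part of each gene could not be counted where genes overlap, because the counting tool sets aside reads that fall on more than 1 gene. Exons of 15 of the 38 Hox genes overlap another annotated gene. The overlap was 15.0% of the exon length of Hoxa2, and Hoxd13 had none. It was over 50% for Hoxd3 (62.8%) and Hoxd4 (52.3%), almost all of it with genes on the same strand, and for Hoxb3 (52.9%), with a gene on the opposite strand. The use of strand in counting, which decides whether the overlap of Hoxb3 was lost, is not given in the sources used here, and the levels of these 3 genes are uncertain.

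By paralog group, the genes examined in groups 1 to 4, which mark the hindbrain, were 8 of 11 listed and had 29 reads (31.9%). In groups 5 to 8, 6 of 11 genes were listed, with 20 reads (22.0%). In groups 9 to 13, 2 of 16 genes were listed, with 42 reads (46.2%), of which Hoxd13 gave 41 and Hoxb13 gave 1. No gene of groups 9, 10, 11 or 12 was listed.

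Of the group 1 genes examined Hoxd1 alone was listed, with a mean of 0.805 normalized counts. The summed mean level was 2.09 in group 2, 1.30 in group 3 and 0.488 in group 4. In control libraries the means of groups 2 to 4 were 2.06, 0.360 and 0, and all 7 control reads of group 2 were in control a. In cKO libraries they were 2.12, 2.23 and 0.977, and 5 of the 7 reads of group 3 were on Hoxa3 in cKO a. Group 5 had 0.981, group 6 had 0.360, group 7 had 1.37 and group 8 had 0.625, and counts of this size do not separate neighbouring groups.

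**Figure D3:**
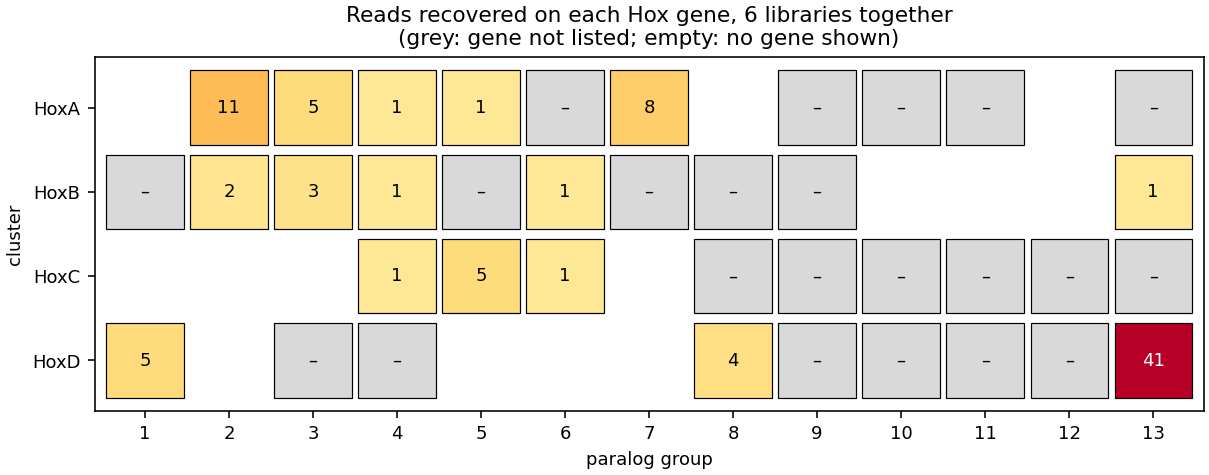
Reads on each Hox gene, summed over the 6 libraries, by cluster (rows) and paralog group (columns), with grey cells for genes not listed and empty places where no gene is shown. Hoxd13 has 41 reads and Hoxa2, the next, has 11, with no listed gene in groups 9 to 12.

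By cluster, HoxD had 50 reads on 3 of 9 genes and HoxA had 26 on 5 of the 10 examined. HoxB had 8 reads on 5 of 10 genes, and none of them passed 3 reads in a library. HoxC had 7 reads on 3 of 9 genes. The B and C clusters together thus held 15 of the 91 reads.

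Levels of different genes were compared per kb of merged exon. Hoxd13 had 2.70 normalized counts per kb and Hoxa2 had 0.997, and the difference of 1.70 was 5.01 per kb of coding sequence and 1.53 per kb of exon that no other gene overlaps. Hoxa7 followed with 0.476 and Hoxd1 with 0.432. The remaining 12 genes were between 0.0608 and 0.259.

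Most genes beside the clusters were expressed at far higher levels than the Hox genes. Of 16 flanking protein-coding genes, the nearest pair beyond each end of each cluster, 15 were listed and 14 had a mean of at least 10, with a median of 1131 normalized counts. Evx2 was at 71.3 normalized counts per kb, 26.4 times the level of Hoxd13. Evx1, the related homeobox gene 52.6 kb beyond Hoxa13, was at 33.0 per kb, and Hoxa13 was not listed. The lowest listed flanking gene was Ttll6, 28.9 kb from the HoxB cluster, at 1.28 per kb, which is below Hoxd13, and Calcoco2 beyond it was not listed.

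**Figure D4:**
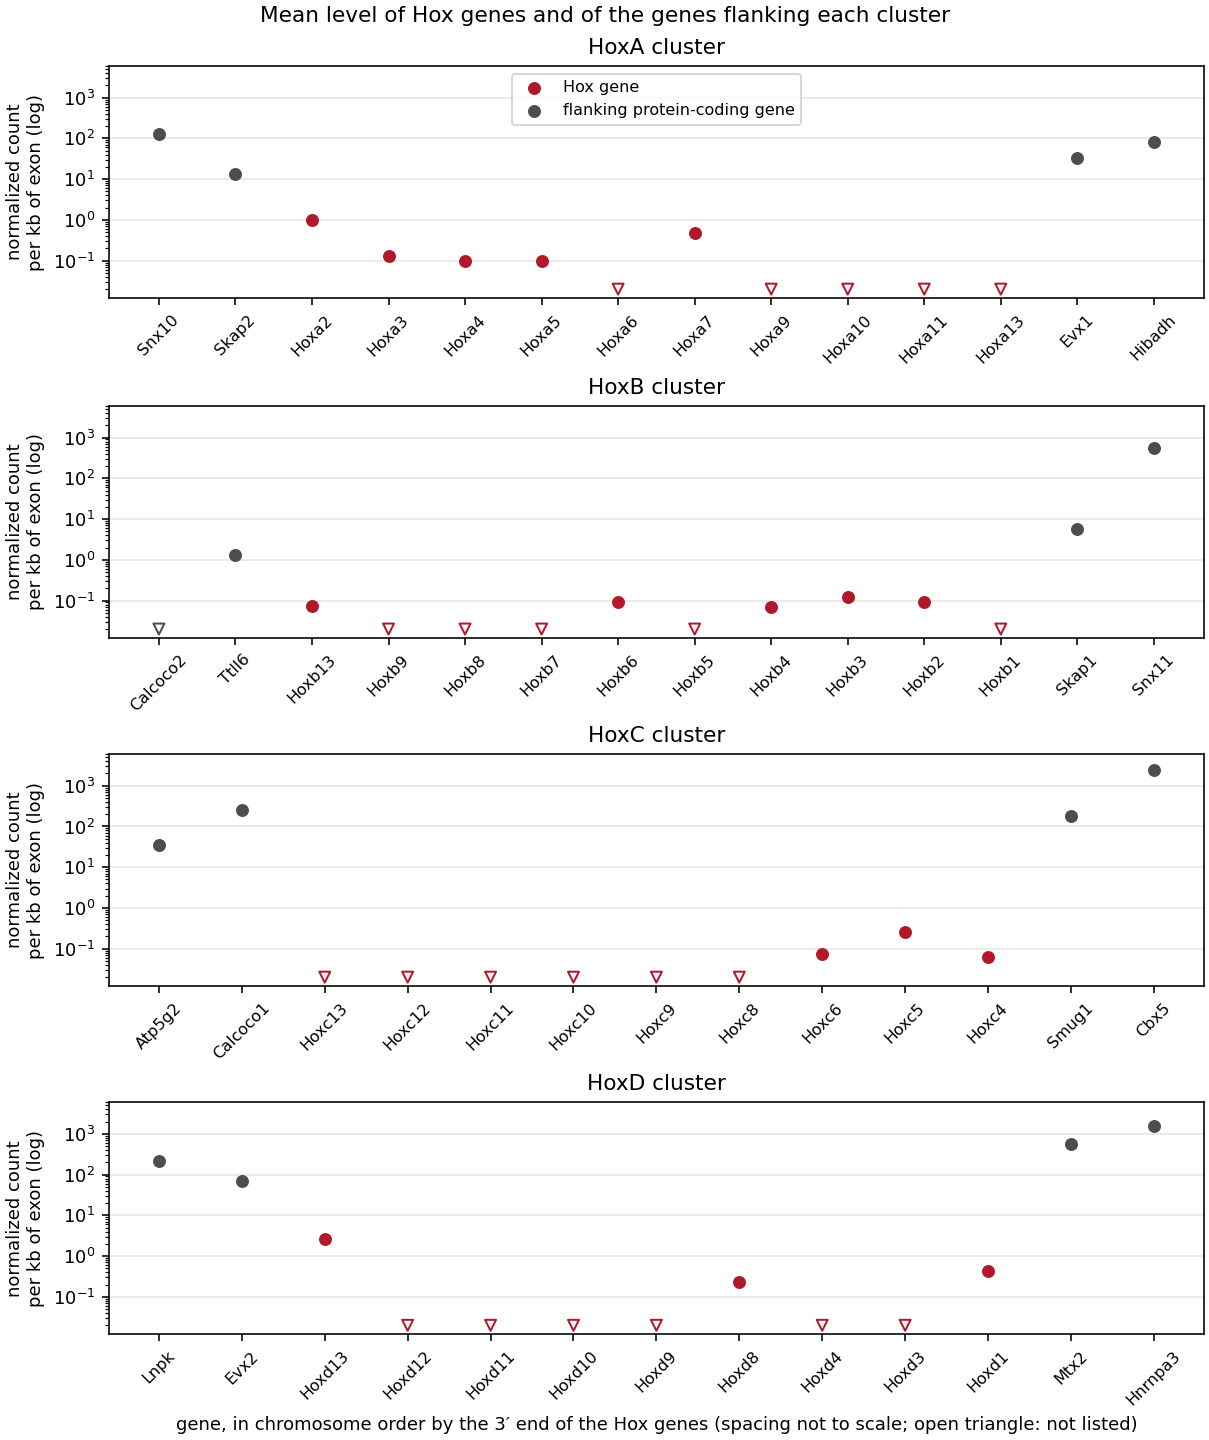
Mean level per kb of exon (y axis, log scale, normalized counts) of the Hox genes (red) and the flanking protein-coding genes (grey) in chromosome order along each cluster, with open triangles for genes not listed. Hox levels stay at or below 2.70, and the flanking genes range from 1.28 to 2463.

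Transcripts inside the clusters other than Hox genes were also scarce. Of 46 such annotated genes 5 were listed, and only Gm11539, a processed pseudogene inside HoxB, had a mean of at least 10. It was at 433 normalized counts, but reads of a processed pseudogene can come from its parent gene, so this level is uncertain. Hoxaas2, a transcript antisense to the Hoxa3 region, had a mean of 5.30, with 1, 4 and 5 reads in the cKO and 16, 4 and 3 in the control.

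The comparison of genotypes asked whether loss of Lmx1b in Pitx3-expressing cells altered the Hox genes. The summed level of the 16 genes was 13.8 ± 8.68 normalized counts in cKO libraries and 15.9 ± 6.37 in control libraries (SD, n = 3 libraries each). The reads numbered 25, 11 and 6 in cKO a, b and c and 21, 9 and 19 in control a, b and c. The lowest value, 6 reads in cKO c, has an exact Poisson 95% interval of 2.20 to 13.1, and the highest, 25 in cKO a, has one of 16.2 to 36.9; these intervals are on unscaled reads and cover counting error only. The ratio of cKO to control was 0.904, with a 95% interval of 0.584 to 1.39 from an exact binomial test on 42 and 49 reads, which covers counting error only.

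No single Hox gene was called different. At a minimum mean of 10 none could be tested, and limma gave 466 of 16673 genes (2.79%) a p-value under 0.05 before adjustment. With a minimum of 1, 3 Hox genes were tested and none had such a p-value, against 3.20% of 21772 genes. With no minimum all 16 were tested, again with none, against 3.69% of 26348 genes. Of these 16, 10 had reads in 1 library only, so the test had little power for them. In each of these 3 fits 0 genes of the whole table had an adjusted p-value under 0.05. Without control a, at a minimum mean of 10, 4 genes of the whole table did. The normalized counts of cKO and control libraries overlapped for all 16 Hox genes, but 15 of them had a library at 0 in both groups and so had to overlap, and nothing is read from this count beside the 5.37% of the 9675 genes with a mean under 10 whose groups did not overlap.

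Hoxd13 had 15 reads over the cKO libraries and 26 over those of the control, a ratio of 0.608 with a counting interval of 0.299 to 1.19. Its means were 5.08 ± 0.670 and 8.33 ± 4.90 normalized counts (SD, n = 3 each), and an exact two-sided permutation test gave p = 0.4, where 0.1 is the smallest possible. In limma at a minimum mean of 1 its log2 difference was -0.45 (SE 0.73, unadjusted p = 0.544, adjusted p = 1.00), and it was -0.038 without control a, which held 14 of the 26 control reads, and -1.05 without control b, which held 3.

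Hoxa2 had 5 reads over the cKO libraries and 6 over those of the control, a ratio of 0.879 with a counting interval of 0.212 to 3.46. Its means were 1.77 ± 2.20 and 1.77 ± 3.06, and its limma log2 difference of 0.33 (SE 1.33, unadjusted p = 0.809, adjusted p = 1.00) changed sign to -0.49 without cKO b, to -0.34 without control b and to -0.20 without control c. This interval and that of Hoxd13 include 1, and both cover counting error only.

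Of the 16 genes, 5 had reads in the cKO only, 5 in the control only and 6 in both. The first set was Hoxa3, Hoxa4, Hoxb4, Hoxc4 and Hoxd8, and the second Hoxa5, Hoxb6, Hoxb13, Hoxc5 and Hoxc6. Each of these 10 genes had its reads in 1 library. Among all 9675 genes with a mean under 10, 35.2% had reads in 1 group only. The 2 Evx genes were also lower in the cKO mean, with Evx2 at 267 ± 42.5 against 331 ± 79.4 (limma, unadjusted p = 0.111) and Evx1 at 84.0 ± 24.9 against 106 ± 37.8 (unadjusted p = 0.250), and neither passed the threshold. Without control a the log2 differences went from -0.32 to -0.13 for Evx2 (unadjusted p = 0.470) and from -0.36 to -0.077 for Evx1 (unadjusted p = 0.800). Of the 13 flanking genes tested, Skap2, at the 3′ side of HoxA, was called lower in the cKO, against 1.61% of all genes tested (limma, log2 difference of -0.56, SE 0.19, unadjusted p = 0.0143; unadjusted p = 0.0693 without cKO b).

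Other genes that mark position between midbrain and spinal cord were read beside the Hox genes. Of 5 rhombomere and caudal regulators 3 were listed, all below the minimum mean for the test. Egr2, a direct activator of Hox genes in the hindbrain, was at 4.38, with 9.37, 2.11 and 5.41 in the cKO and 2.65, 6.72 and 0 in the control. Cyp26c1, which degrades retinoic acid, was at 0.316, Cdx1 had a single read, and Cdx2 and Cdx4, which switch on posterior Hox genes, were not listed.

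Genes of the midbrain and isthmus, the signalling border between midbrain and hindbrain, were all listed, and 4 of the 14 tested had an unadjusted p-value under 0.05, all lower in the cKO. Over all genes tested 1.61% were called in this direction. En1 and En2 had already been reported as lower from these libraries when the list was chosen, so the count is not independent of that result. The median log2 difference of the list was -0.33, against 0.00 over all genes tested. En2, an engrailed factor of this border, had 1413, 1716 and 1889 normalized counts in the cKO libraries and 2399, 2012 and 2440 in those of the control (log2 difference of -0.46, SE 0.10, unadjusted p = 8.71e-04), and its groups did not overlap, as for 7.67% of genes with a mean of at least 10. En1 was lower by a like amount (-0.40, SE 0.094, unadjusted p = 0.00128), as were Pax5 (-0.33, SE 0.12, unadjusted p = 0.0202) and Pitx3 (-0.41, SE 0.18, unadjusted p = 0.0407). Gbx2, which opposes Otx2 on the hindbrain side, was at 531 and did not pass (0.51, SE 0.24, unadjusted p = 0.0574). Pax5 no longer passed without cKO a (-0.16, unadjusted p = 0.108) or control c (-0.22, unadjusted p = 0.0998). Pitx3 was at -0.24 without cKO a and at -0.37 to -0.44 without a control library, and passed in none of these (unadjusted p from 0.0508 to 0.210). All adjusted p-values of the list were 1.00.

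Neurons of the anterior hindbrain were present in the dissected tissue although Hox reads were scarce. All 7 genes of the serotonergic and noradrenergic list were tested. Of these, 4 were lower in the cKO at an unadjusted limma p-value under 0.05 (1.61% of all genes tested were) and none higher. The median log2 difference of the list was -0.86. Whether each member marks these neurons alone was not tested. Slc6a4, the serotonin transporter, had 82.4, 127 and 200 normalized counts in the cKO libraries and 278, 245 and 392 in those of the control (limma, log2 difference of -1.23, SE 0.28, unadjusted p = 8.18e-04). Tph2, which makes serotonin in neurons, had 82.4, 61.3 and 169 against 202, 164 and 148 (-0.86, SE 0.29, unadjusted p = 0.0122). Slc22a3 (-1.73, SE 0.41, unadjusted p = 0.00119) and Fev, the serotonergic lineage factor (-0.93, SE 0.35, unadjusted p = 0.0229), were the others. The remaining members did not pass: Dbh, which makes noradrenaline, and Slc6a2, its transporter, had log2 differences of 0.12 (SE 0.82, limma unadjusted p = 0.883) and -0.086 (SE 1.09, unadjusted p = 0.939), and Tbx20 had one of 0.30 (SE 0.54, unadjusted p = 0.592). Slc6a2 was spread widely within both groups, at 66.5, 169 and 5.41 normalized counts in cKO a, b and c against 187, 24.0 and 15.1 in control a, b and c, as was Dbh, at 15.9, 33.8 and 8.66 against 54.9, 15.4 and 3.24. Both were highest in control a, and without it their log2 differences were 1.09 for Slc6a2 (unadjusted p = 0.393) and 1.12 for Dbh (unadjusted p = 0.189). Tph2 was at -0.57 without cKO b and did not pass (unadjusted p = 0.0773). Fev was at -0.50 without cKO a, -0.85 without cKO b and -0.88 without control c and did not pass in any of them (unadjusted p from 0.0553 to 0.158), whereas without cKO c it was at -1.40. In bulk tissue fewer cells of a type and less RNA per cell cannot be told apart.

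The cerebellar list, of genes active in the roof of the anterior hindbrain, had 2 of 6 tested genes lower in the cKO, against 1.61% of all genes tested, and none higher. Cbln1, a cerebellar synaptic protein, was at 1537, 1551 and 1515 against 2149, 1702 and 1848 (limma, log2 difference of -0.31, SE 0.084, unadjusted p = 0.00347). Skor2, which marks Purkinje cells, was at 49.7, 58.1 and 45.5 against 325, 91.3 and 73.4 (-1.41, SE 0.57, unadjusted p = 0.0294). Skor2 was at -0.69 without control a and kept its call (unadjusted p = 0.0307). It lost its call when any cKO library was left out, at log2 differences of -1.33 to -1.50 (unadjusted p from 0.0635 to 0.0691). The members with the most counts, Lhx5 at 2449 and Pax6 at 1729, did not pass, with log2 differences of 0.041 and 0.24. Atoh1 and Ptf1a, of the same list, had means of only 12.7 and 4.36. Which cells the counts of the list came from was not tested.

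Control a stood apart from the other libraries in these lists. It had 74.3 normalized counts of Atoh1, the factor of the rhombic lip, against 0 to 2.16 in the others, and 18.6 of Ptf1a against 0 to 6.49. It was also highest for Skor2, Slc6a2 and Dbh and for Cyp26b1, a retinoic acid-degrading enzyme, at 3072 against 710 to 1178. These genes were picked after their values were seen. In the same library Hoxd13 (14 reads), Hoxa2 (6), Evx2 (414 normalized counts) and Evx1 (147) had their highest values, but the Hox total of 21 reads lay between the 25 of cKO a and the 19 of control c. Whether these differences between libraries share a source was not tested.

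**Figure D5:**
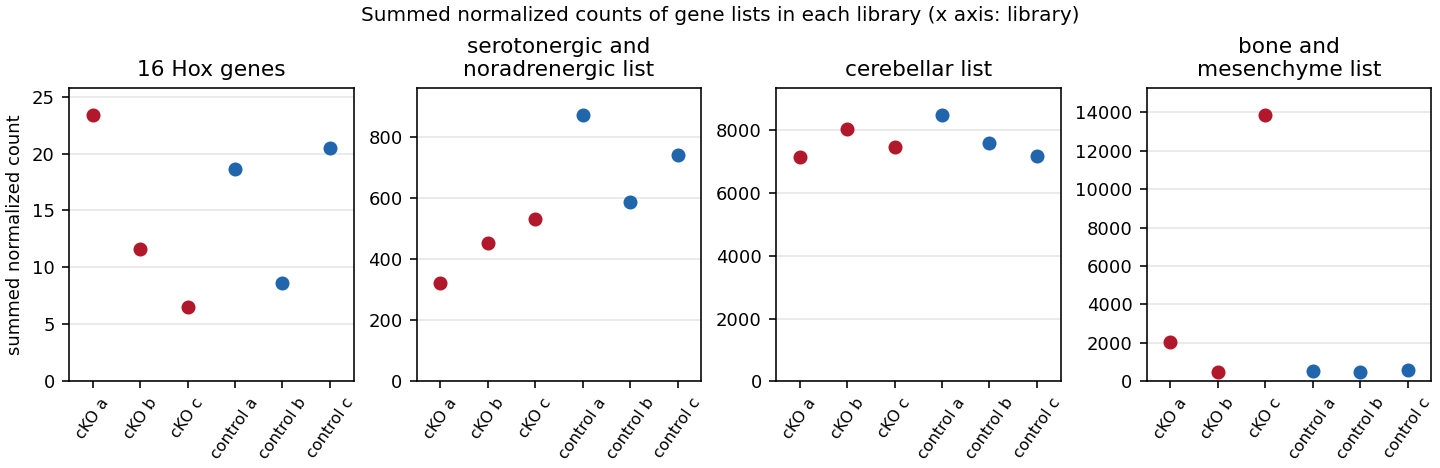
Summed normalized counts (y axis, from 0) in each library (x axis) for the 16 Hox genes, the serotonergic and noradrenergic list, the cerebellar list and the bone and mesenchyme list, with cKO in red and control in blue. Hox sums overlap between groups (6.49 to 23.4), the serotonergic and noradrenergic sums run from 323 to 531 in the cKO and from 589 to 873 in the control, and the bone sum is highest in cKO c at 13873.

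The partners and regulators of Hox proteins were abundant where the Hox genes were not. Of 8 Hox cofactors, the TALE homeodomain proteins that bind DNA with Hox proteins, all were listed. Pbx3 was at 6727 normalized counts and Meis2 at 4248, and the list ranged down to 352 for Pbx4. The unadjusted limma p-value was over 0.05 for all 8 (median log2 difference of -0.0028). The 17 Polycomb and trithorax genes, which hold Hox clusters silent or active, had 420 to 8036 normalized counts, led by Kmt2a at 8036 and Phc1 at 5639. None of them passed either, with a median log2 difference of 0.015.

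Retinoic acid switches on the anterior Hox genes, and its receptors were expressed. Rara was at 379 normalized counts, Rarb at 127 and Rarg at 112. Aldh1a2, the main source of embryonic retinoic acid and the only enzyme of its synthesis on the list, was at 5.88. The degrading enzymes Cyp26a1 and Cyp26c1 were at 0.937 and 0.316. Cyp26b1 was at 1292, with a log2 difference of -0.78 (SE 0.39, limma unadjusted p = 0.0657), which was -0.21 without control a (SE 0.16, unadjusted p = 0.230). None of the 6 genes tested passed the threshold.

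Tissues outside the brain were looked for through their own markers. Whether the cells that these markers point to express Hox genes was not tested. The bone and mesenchyme list had 1 of 9 tested genes called higher in the cKO (1.18% of all genes tested were), Col3a1, at 626, 240 and 2319 normalized counts against 200, 172 and 215 (limma, log2 difference of 1.84, SE 0.77, unadjusted p = 0.0353). Its log2 difference was 1.03 without cKO c, where it kept its call (unadjusted p = 0.0123). It lost its call when any control library was left out, at log2 differences of 1.75 to 1.90 (unadjusted p from 0.0739 to 0.0804). Col1a1, the main bone collagen, was at 532, 14.8 and 6097 in the cKO and 10.6 to 11.5 in the control, and Col1a2 was at 594, 123 and 4315 against 165 to 225. Summed over the list, cKO c was at 13873, cKO a at 2063 and the other 4 libraries at 498 to 583. The library highest in these genes, cKO c, had 6 Hox reads, the lowest, and cKO a had 25, the highest.

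The skeletal muscle list summed to 68.2 to 108 normalized counts per library, with its defining factors Myod1 and Myog at means of 0.468 and 0.537, and none of its 3 tested genes passed, Acta1 (39.1) and Myh3 (22.2) included. Of 6 blood genes 2 were higher in the cKO, against 1.18% of all genes tested, Hba-a1 (log2 difference of 0.26, SE 0.11, limma unadjusted p = 0.0386) and Hbb-bs (0.30, SE 0.12, unadjusted p = 0.0323), while the list's sums of 10713 to 13173 and 8450 to 12560 overlapped. Without control a their log2 differences were 0.14 and 0.15, and without cKO c 0.16 and 0.20. Hba-a1 did not pass without cKO b, cKO c or control a (unadjusted p from 0.0935 to 0.190), nor Hbb-bs without cKO c, control a or control b (unadjusted p from 0.0519 to 0.171). The 5 endothelial genes, led by Kdr at 1595 and Cldn5 at 1175, and the 5 microglial genes, led by Csf1r at 316 and Cx3cr1 at 227, had none that passed.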

How the data were processed

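RNA-seq libraries of E14.5 midbrain, 3 Lmx1b cKO and 3 control, were analysed. Per the submitters' processing notes, the tools were TopHat 1.0.14, Bowtie2 2.1.0, HTSeq 0.6.1p1 and DESeq 1.10.1 on GRCm38.p4. The deposited values are a signal, the mean of each gene across the 6 libraries and within each genotype, after the authors had scaled the read counts by library size factors. The table also holds the authors' ratios and p-values, which were not used. The 3 lines that name no gene held 31.8% of mean counts and were left out.

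Reads per library were recovered from the steps of the means, since each mean is made of whole reads worth a fixed amount per library, for sums up to 30000 reads. A unique answer was found for 26348 genes (98.1%), with 69.2% of the normalized counts on genes. Of 1870 decoy values, 3 had any answer. The p-values measure the spread between libraries of pooled embryos.

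The test was limma 3.58.1 (voom, R 4.3.3) on recovered counts, for genes whose mean was at least 10, and was checked on simulated counts. The design had named this test for the case that reads could be recovered. Exon lengths came from GENCODE on GRCm38 (26703 genes matched). Hox genes with a mean of at least 10, or more than 3 reads in a library, were named with values, the others by name and count; of each other list, members with an unadjusted p-value under 0.05 and the 2 with the most counts were named, and others after their values were seen. Members and lists were chosen with earlier results of these data known. Alternatives were other minimum means, limma-trend with pseudocounts of 1 and 10, other scalings, a threshold of 0.01, other lengths and each library left out in turn. A few genes are not reported here, and sums over the Hox genes and lists cover only the genes reported.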

Additional observations from a re-analysis of the deposited data

How the results depend on the processing

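For no Hox gene was the unadjusted limma p-value under 0.05, whatever the setting, that is under any minimum mean (1, 10, 50 or none), limma-trend pseudocount, scaling, centring or left-out library, although only the minimum of 1 and no minimum let Hox genes into the test. The number of Hox genes over 3 reads in a library was 7; it was 4 in control libraries alone, 4 to 7 with a library left out, and 0 when a mean of at least 10 was required. Genes of the whole table with an unadjusted p-value under 0.05 numbered 466, against 972 with no minimum mean and 67 at a threshold of 0.01. With a minimum mean of 1 and a library left out, a setting chosen after seeing the data, the log2 difference of Hoxa2 ranged from -0.49 to 1.55, below 0 also without control b (-0.34) and control c (-0.20). Hoxa7, at -0.031 with all libraries, ranged from -0.94 (without cKO a) and was at 0.43 without cKO b and 0.41 without cKO c. The cause was not tested. The 13 genes of other lists with an unadjusted p-value under 0.05 kept it in all 90 values under other settings and lost it in 22 of 78 values without a library; En1, En2, Slc6a4, Slc22a3 and Cbln1 kept it throughout. Over the lists 9 to 18 genes were called. No paired analysis was possible because the column headers number the libraries of both groups alike (N1 to N3) but the recovered libraries cannot be matched to these numbers, so all p-values come from an unpaired model. At this depth 1 read was worth 0.885 to 1.08 normalized counts, more than the mean of 13 of the 16 listed Hox genes.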
